A study of Homo sapiens with 4 samples.

Results

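Most processed pseudogenes are copies of cellular messages that were reverse transcribed and inserted back into the genome. Such copies keep the exon sequence of a parent gene and lack its introns. The members described here are all genes whose transcript rows carried the type processed pseudogene in the deposited FPKM table, joined to the raw read counts by transcript identifier. They numbered 10191 genes on 10197 transcript rows, out of 58735 genes on 206601 rows. They were grouped by parent, taken from the symbol before its final P and number, and for all names also from the protein-coding transcript that matched each copy best in sequence. Of the 10191 copies, 6935 had no read in any library, 3256 had at least 1 read, and 1022 passed the filter on low counts and were tested. Another 2234 had reads but too few to test.

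H1299 is an established human non-small cell lung cancer line. Cells received either 0.5 mM methylparaben, a preservative, for 48 h, or ethanol as the control, and each group had 2 libraries. The labels state that experiments were duplicated and do not say that the libraries came from separate cultures, so p-values measure the spread between these libraries, which may be technical. RNA was purified on poly-A beads, and the libraries held 2368658 and 2182058 counts with ethanol and 3760982 and 2068486 with methylparaben. VIM and AXL, which mesenchymal-like lines express, and the epithelial keratin genes KRT8 (14 to 31 counts) and KRT18 (5 to 27 counts) had reads in all 4 libraries. The mesenchymal gene CDH2 had 1 read in all and CAV1 had 0, and the lung lineage genes NKX2-1, SFTPB, SFTPC and NAPSA and the blood cell genes PTPRC, CD3E, CD14 and HBB had 0. Counts near 0 do not by themselves show absence here, since GAPDH had 0, 1, 0 and 1 counts and RPS2 had 0 in all 4 libraries.

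Genes with abundant messages in the germ line, such as those for ribosomal proteins, elongation factors and glycolytic enzymes, have left the largest families of such copies in the human genome. Most copies have no promoter of their own, although some are transcribed from nearby or surrounding genes. Since a young copy still matches the parent message almost base for base, short reads from the parent can be assigned to the copy, and a count on a copy may hold parental reads.

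The sequences show how close the copies are to their parents. Each line gives coding sequence of a parent gene or the matching stretch of a copy, 5′ to 3′ on the sense strand, from the GENCODE release 29 transcripts. Capitals mark bases of a copy that differ from the parent. Each stretch was picked as the one with the most differences over the copies compared, so it can differ more than the whole copy does. The first set covers coding bases 110 to 199 of HSPA5, which encodes BiP, the main Hsp70 chaperone of the endoplasmic reticulum. AC105250.1 lies there at chr4:164188487-164188576 on the plus strand and AL354702.1 at chr1:38709030-38709119 on the plus strand (GRCh38). They are shown because both copies and the parent rose with methylparaben.
HSPA5: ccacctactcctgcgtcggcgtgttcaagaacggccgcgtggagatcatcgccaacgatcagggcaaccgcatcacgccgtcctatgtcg
AC105250.1: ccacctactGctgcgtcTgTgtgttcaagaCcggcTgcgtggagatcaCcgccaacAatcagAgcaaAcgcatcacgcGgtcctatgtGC
AL354702.1: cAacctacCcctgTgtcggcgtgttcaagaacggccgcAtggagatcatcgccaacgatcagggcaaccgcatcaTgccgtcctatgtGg
AC105250.1 differed from HSPA5 at 12 and AL354702.1 at 6 of these 90 bases, and over the aligned coding sequence at 134 of 1953 and 87 of 1942 bases.

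The next set covers coding bases 424 to 513 of FTH1, the ferritin heavy chain that stores iron, whose copies made up the family with the largest median increase among the lists. FTH1P2 lies at chr1:228687699-228687788 on the plus strand, FTH1P8 at chrX:148052633-148052722 on the plus strand and FTH1P20 at chr2:180872906-180872995 on the minus strand.
FTH1: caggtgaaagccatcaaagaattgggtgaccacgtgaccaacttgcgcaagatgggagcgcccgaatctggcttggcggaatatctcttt
FTH1P2: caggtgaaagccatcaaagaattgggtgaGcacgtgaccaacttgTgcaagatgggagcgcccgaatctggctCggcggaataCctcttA
FTH1P8: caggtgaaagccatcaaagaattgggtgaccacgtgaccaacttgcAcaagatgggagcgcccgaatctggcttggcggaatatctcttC
FTH1P20: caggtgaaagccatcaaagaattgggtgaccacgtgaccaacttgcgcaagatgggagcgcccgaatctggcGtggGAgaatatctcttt
FTH1P2, FTH1P8 and FTH1P20 differed from FTH1 at 5, 2 and 3 of these 90 bases, and over the aligned coding sequence at 12 of 412, 10 of 513 and 12 of 548 bases.

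The closest copies carried almost nothing that tells them from the parent. EEF1A1 encodes the elongation factor that brings aminoacyl-tRNA to the ribosome, and EEF1A1P5 (chr9:133019690-133019779, plus strand) is shown because it held more reads than any other copy. Its 90 bases matching coding bases 205 to 294 had 1 difference, at the last position, and its full aligned coding sequence of 1389 bases had 4.
EEF1A1: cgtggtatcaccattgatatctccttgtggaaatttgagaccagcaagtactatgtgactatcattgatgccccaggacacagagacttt
EEF1A1P5: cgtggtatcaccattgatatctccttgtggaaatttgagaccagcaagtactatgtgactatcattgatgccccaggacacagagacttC
RPL41 encodes the smallest protein of the large ribosomal subunit. Its first 75 coding bases were identical in the copies RPL41P1 (chr20:21755270-21755344, plus strand), AC016596.1 (chr5:55944656-55944730, plus strand) and AC090498.1 (chr7:137513859-137513933, plus strand), so the 1 line stands for all 4 genes.
RPL41: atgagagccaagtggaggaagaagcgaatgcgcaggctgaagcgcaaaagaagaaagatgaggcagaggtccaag
CALM2P2 (chr10:70163985-70164074, plus strand), a copy of the calmodulin gene CALM2, is shown from the copies that fell. It had 7 differences over coding bases 303 to 392 and 18 over 440 aligned coding bases.
CALM2: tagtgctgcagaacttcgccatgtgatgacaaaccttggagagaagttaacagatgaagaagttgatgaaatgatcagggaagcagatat
CALM2P2: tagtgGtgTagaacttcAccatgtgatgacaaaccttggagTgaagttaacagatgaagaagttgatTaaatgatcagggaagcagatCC

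Over the 1022 tested copies the median identity to the best-matching coding transcript was 95.9%, and the longest stretch without a difference had a median of 105 bases. Stretches of 100 bases or more were present in 573 copies, which held 90.3% of all reads counted on processed pseudogenes, and 16 copies matched a coding transcript over their whole length. Of the 636 tested copies named after a coding gene, 630 matched that gene best, and 347 further copies had clone names that give no parent. How reads that fit several places were assigned is not given in the sources used here.

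Processed pseudogenes accounted for 16.2% and 14.4% of all counts with ethanol and for 17.1% and 21.5% with methylparaben. The values did not overlap between groups, but methylparaben library 1 lay nearer to the ethanol libraries than to methylparaben library 2. The 10 most abundant copies held 37.1% to 40.8% of these counts, and EEF1A1P5 alone 13.8% to 20.6%.

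A copy was called changed where edgeR's quasi-likelihood test gave a Benjamini-Hochberg adjusted p under 0.05 over all 8055 tested genes. With methylparaben 186 copies were higher and 70 lower, so 256 of 1022 (25%) were called, against a background of 36.9% of all tested genes. The share called higher among all tested genes was 18.5% and the share called lower 18.4%, so the higher calls among the copies (186 of 1022) lay near the background and the lower calls (70 of 1022) under it. The median log2 fold change was 0.19 for the copies and 0.03 for all tested genes. Both methylparaben libraries lay above both ethanol libraries for 361 copies (background 35.5%) and below for 237 (background 35.0%). With scaling by library size only, 157 copies were higher and 97 lower, a share of 61.8% higher among the calls against 72.7% with TMM scaling, and the median of all genes shifted by -0.11 on the log2 scale. For all tested genes that share was 44.3% against 50.1%. Without either ethanol library fewer copies were called, and so were fewer of all tested genes. Without methylparaben library 1 more copies were called higher, while the number of calls over all genes changed little. Such fits leave a single library in a group.

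**Figure D1:**
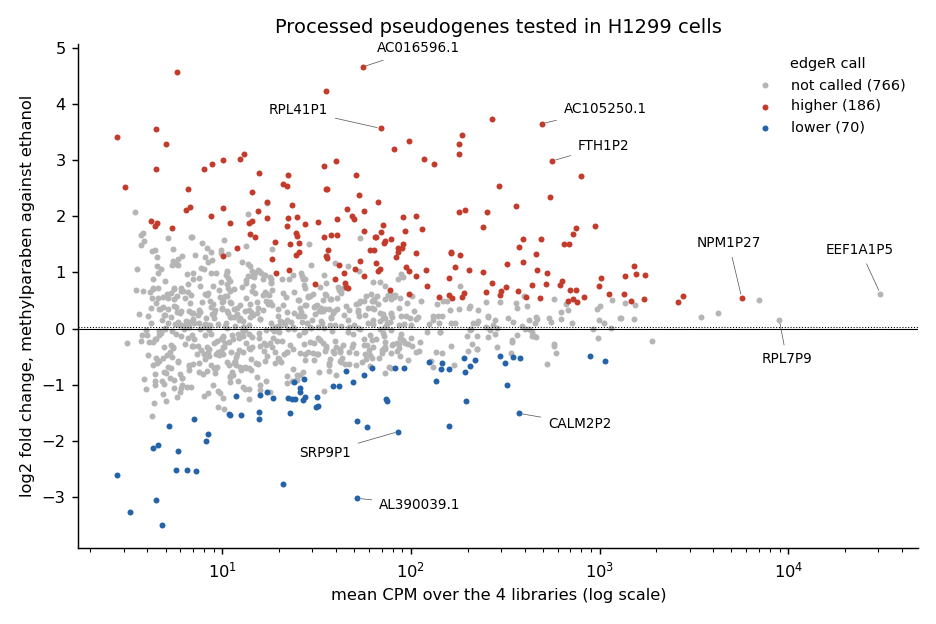
Log2 fold change with methylparaben against mean level in CPM (log axis) for the 1022 tested processed pseudogenes, each point 1 copy, coloured by call. The 186 higher calls reach further from 0 than the 70 lower calls, and the most abundant copies lie close to 0.

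Of the 10 most abundant copies 6 did not pass the test, and most of the 10 came from genes of the translation machinery. EEF1A1P5 was counted at 29622 and 18805 CPM (counts scaled per 1000000 of the library) with ethanol and at 26545 and 48039 CPM with methylparaben. The groups overlapped, since methylparaben library 1 lay between the ethanol libraries, and the log2 fold change was 0.62 ± 0.31 (SE, adjusted p = 0.139). Without methylparaben library 1 it was 0.98 and passed the test. EEF1A1P6, a second copy of the same parent, had 6579 and 4977 CPM with ethanol and 5617 and 10873 CPM with methylparaben, which also overlapped (0.51 ± 0.29, adjusted p = 0.187). EEF1A1P9 was rarer, at 20.4 and 17.7 CPM against 22.9 and 134 CPM, and rose by 2.01 ± 0.65 (adjusted p = 0.0342). That rise rested on methylparaben library 2, since without it the log2 fold change was 0.29 (adjusted p = 0.609), and the call was also lost without ethanol library 1 (adjusted p = 0.0993). The gene EEF1A1 itself had 22, 13, 5 and 5 counts in the 4 libraries, against 386255 counts over its copies, and 36.5% of its exonic bases belonged to a single annotated transcript.

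RPL7 and RPS3A encode proteins of the large and small ribosomal subunit. RPL7P9 had 8765 and 8224 CPM with ethanol and 9889 and 9022 CPM with methylparaben, a log2 fold change of 0.15 ± 0.18 that did not pass the test (adjusted p = 0.525). RPL7P1 (0.21 ± 0.17) and RPS3AP6 (0.27 ± 0.17) did not pass either. In the deposited FPKM, which is per length, EEF1A1P5 ranged from 13747 to 32423 over the libraries and overlapped RPL39P3, which ranged from 13996 to 22537, while RPL7P9 was lower in each library. RPL39P3, a copy identical to its parent over 156 bases, had 2263 and 2150 CPM with ethanol and 2856 and 3750 CPM with methylparaben and rose by 0.58 ± 0.19 (adjusted p = 0.033), a call that was lost without either ethanol library (0.172 and 0.185) or methylparaben library 2 (0.0647). AC116533.1, identical to RPL36A over 321 bases, had 1318 and 1044 CPM against 1664 and 2907 CPM and rose by 0.95 ± 0.25 (adjusted p = 0.0156), lost without ethanol library 2 (0.0667). AC022149.1 is identical to part of ITGB1, an integrin gene, over 609 bases. It had 2254 and 1846 CPM with ethanol and 1709 and 1796 CPM with methylparaben, a small difference without overlap, with a log2 fold change of -0.23 ± 0.17 (adjusted p = 0.329).

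NPM1 encodes nucleophosmin, a histone chaperone of the nucleolus. NPM1P27 was counted at 4597 and 4604 CPM with ethanol and at 6730 and 6739 CPM with methylparaben. The libraries of each group were close to each other, and the copy rose by 0.55 ± 0.17 (adjusted p = 0.0288). NPM1P39 had 370 and 280 CPM against 578 and 532 CPM and rose by 0.77 ± 0.18. The NPM1 gene moved the other way, from 265 and 335 CPM with ethanol to 162 and 133 CPM with methylparaben, and fell by 1.02 ± 0.19 on the log2 scale (adjusted p = 0.00323). In total, 4 of 21 tested copies of histone chaperones and nucleolar proteins rose and 0 fell, with a median log2 fold change of 0.18, and this share of 19.0% was near the 18.5% of all tested genes called higher. NPM1P27 missed the threshold without either ethanol library (adjusted p = 0.212 and 0.191), NPM1P39 without ethanol library 2 (0.122), and the list then had 1 higher call without ethanol library 1 and 0 without ethanol library 2.

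Both tested copies of HSPA5 rose, as the parent did. AC105250.1, in an intron of MARCH1 on the opposite strand, was counted at 78.3 and 67.1 CPM with ethanol and at 965 and 866 CPM with methylparaben. Both methylparaben libraries were far above both ethanol libraries, and the log2 fold change was 3.65 ± 0.19 (adjusted p = 8.6e-06). AL354702.1, outside annotated genes, went from 26.8 and 47.6 CPM to 458 and 184 CPM and rose by 3.12 ± 0.42 (adjusted p = 0.000595). The HSPA5 gene had 8974 and 8139 counts with ethanol and 176624 and 103850 with methylparaben, a rise of 3.8 ± 0.22. Counts on AC105250.1 equalled 2.05%, 1.90%, 2.01% and 1.59% of those on HSPA5 in ethanol libraries 1 and 2 and methylparaben libraries 1 and 2. These shares lay close together in all 4 libraries although the counts of both genes changed. For AL354702.1 the shares were 0.702%, 1.35%, 0.953% and 0.338%, a wider spread. Both copies passed the test with each library left out in turn.

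Copies of other chaperone genes moved in both directions. HSPD1P1, a copy of the gene for the mitochondrial chaperonin Hsp60, had 695 and 642 CPM with ethanol and 1039 and 941 CPM with methylparaben. It rose by 0.57 ± 0.16 (adjusted p = 0.0214), while the HSPD1 gene rose by 1.72. Of the HSPD1 counts, 99.9% were on transcripts annotated as retained introns. DNAJA1P3, a copy of an Hsp40 cochaperone, went from 19.99 and 17.3 CPM to 5.99 and 6.80 CPM and fell by 1.55 ± 0.41 (adjusted p = 0.0152), and DNAJA1 fell by 1.61. The call was lost without either ethanol library for HSPD1P1 (0.122 and 0.184) and without ethanol library 1 for DNAJA1P3 (0.0835). Of 14 tested copies named after HSPA, HSPD, HSPE or DNAJ genes, 3 rose, 1 fell and the median was -0.45, and leaving out either ethanol library left 1 rise. Grouped by sequence, 5 of 21 rose and 1 fell. The share called was 28.6% in both groupings, under the 36.9% of all tested genes. Among 5 copies that matched HSP90 genes by sequence, HSP90AB3P rose by 0.79 ± 0.17, HSP90B3P rose by 0.99 ± 0.30 and HSP90AA2P fell by 0.51 ± 0.18. HSP90AB3P kept its call except without ethanol library 2 (adjusted p = 0.082), whereas HSP90B3P and HSP90AA2P each lost theirs in 3 of the 4 leave-one-out fits.

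DNAJC19P5 was the largest chaperone-list increase, with 0 and 2 counts in the ethanol libraries. The ratio of methylparaben to ethanol counts per scaled depth was 27.5 (95% exact binomial interval 7.33 to 232, counting error only). It matched DNAJC19 at 80.2% identity with a longest identical stretch of 20 bases, and it lies in an intron of NFE2L2 on the same strand. NFE2L2, which encodes the oxidative stress factor NRF2, rose by 1.64 ± 0.35 (adjusted p = 0.0057).

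Ferritin copies rose together. Of 10 tested copies of FTH1 and FTL, 9 were higher with methylparaben and 0 lower. The share of 90% stood against 18.5% of all tested genes called higher. The median log2 fold change was 2.66 against 0.03 for all tested genes. FTH1P2 had 152 and 98.7 CPM with ethanol and 829 and 1169 CPM with methylparaben (2.99 ± 0.25, adjusted p = 7.54e-05). FTH1P8 went from 38.3 and 27.7 CPM to 232 and 418 CPM (3.29 ± 0.31), and FTH1P20 from 36.1 and 25.97 CPM to 223 and 461 CPM (3.45 ± 0.35). In all 3 both methylparaben libraries lay above both ethanol libraries. FTH1P7 rose by 2.55 ± 0.18, FTH1P11 by 3.20 ± 0.35, and FTLP3, a copy of the light chain gene, by 2.77 ± 0.62. FTH1P3 was the exception, at 5.95 and 5.19 CPM with ethanol and 23.9 and 4.19 CPM with methylparaben, groups that overlapped (1.40 ± 0.69, adjusted p = 0.136). That copy passed the test without methylparaben library 2 and had a negative log2 fold change without methylparaben library 1. With each library left out in turn the list had 8 or 9 higher calls.

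Together the ferritin copies made up 0.0364% and 0.0320% of counts with ethanol and 0.202% and 0.275% with methylparaben. The gene FTH1 had 0, 0, 1 and 9 counts, and 10.1% of its exonic bases belonged to a single annotated transcript. The light chain gene FTL, with 1 annotated transcript over all its bases, had 115 and 122 counts with ethanol and 699 and 2764 with methylparaben and rose by 4.0 ± 0.73 (adjusted p = 0.00286).

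Copies of translation initiation factor genes rose in 13 of 22 tested cases and fell in 0, with a median of 0.84. The share of 59.1% stood against 18.5% of all tested genes called higher. EIF1P3, a copy of the start codon selection factor gene, was at 2.13 and 2.16 CPM with ethanol and 12 and 24.1 CPM with methylparaben, and rose by 3.01 ± 0.58 (adjusted p = 0.00357). It passed the filter on low counts only through the methylparaben libraries, where it was high, which favours a rise. EIF1P7 went from 5.53 and 6.06 CPM to 23.9 and 26.2 CPM (2.1 ± 0.39). EIF4A2P4, a copy of an RNA helicase gene, went from 22.5 and 29.9 CPM to 92.2 and 82.2 CPM (1.74 ± 0.26, adjusted p = 0.000983). All 3 were without overlap between the groups. The parents did not pass the test, with 0.21 for EIF1 and -0.49 for EIF4A2, so that EIF1P3 counts equalled 7.25% and 5.88% of EIF1 counts with ethanol and 37.0% and 53.5% with methylparaben. For EIF4A2P4 the shares were 22.6% and 28.4% against 121% and 119%. All reads counted on EIF4A2 were on transcripts annotated as retained introns.

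The abundant copy EIF2S2P4, from the gene for the beta subunit of eIF2, had 2280 and 2113 CPM with ethanol and 3061 and 3023 CPM with methylparaben and rose by 0.47 ± 0.16 (adjusted p = 0.046). EIF2S2 itself rose by 0.59, and the copy held 269%, 296%, 262% and 254% of the counts of the gene. Its call was lost without either ethanol library (adjusted p = 0.208 and 0.307). In the whole list of initiation factors, 6 copies were called higher without ethanol library 2, and with scaling by library size only 12 were higher and 1 lower.

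**Figure D2:**
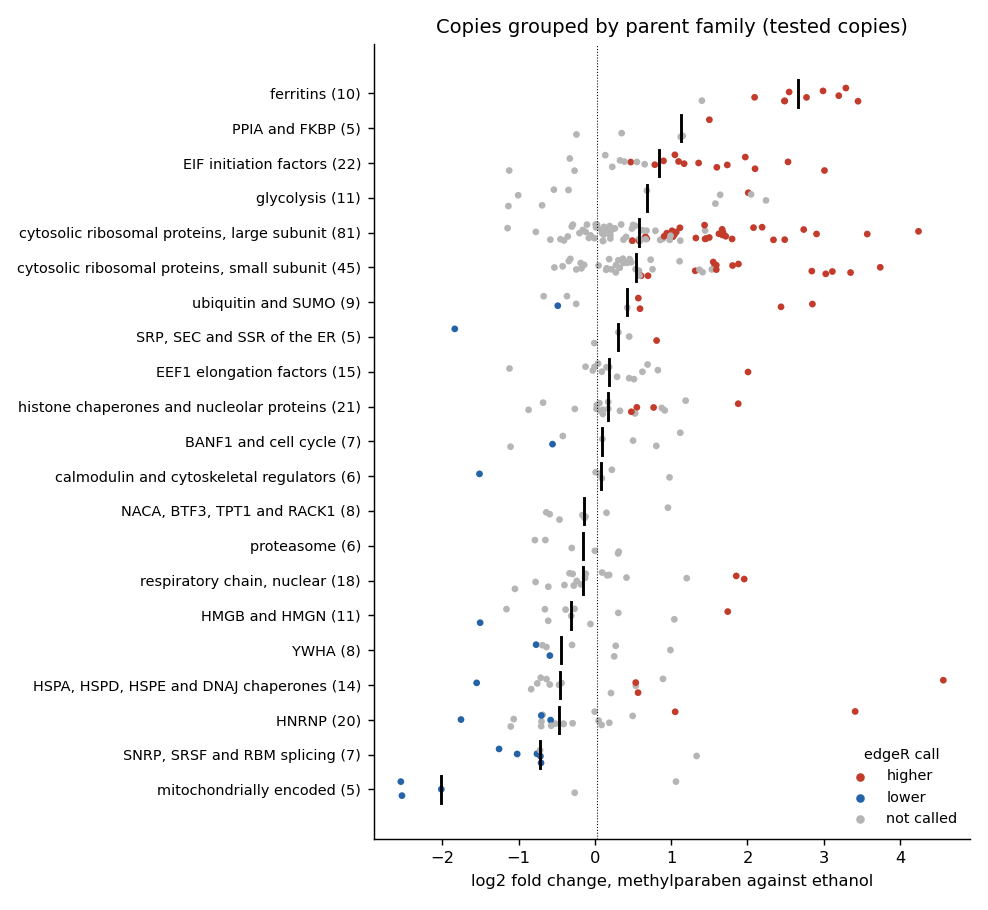
Log2 fold change with methylparaben for tested copies in the parent gene lists, each point 1 copy, coloured by call. The dotted line marks the median of all tested genes (0.03), and black bars mark the median of each list. The 9 called ferritin copies and the 13 called initiation factor copies lie to one side, whereas the SNRP copies that were called lie on the other.

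Ribosomal protein copies were the largest group. Named after large subunit genes, 30 of 81 tested copies rose and 0 fell (median 0.58), and after small subunit genes 14 of 45 rose and 0 fell (median 0.53). With clone-named copies added by sequence there were 204, of which 76 (37.3%) rose and 0 fell, against 18.5% of all genes called higher. These copies took 5.48% and 5.19% of the counts with ethanol and 6.35% and 8.16% with methylparaben. Large subunit calls by name were 19 without ethanol library 1, 24 without ethanol library 2, 45 without methylparaben library 1 and 19 without methylparaben library 2. The small subunit calls were 11, 14, 27 and 11 in the same order.

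RPL15P3 had 222 and 179 CPM with ethanol and 391 and 712 CPM with methylparaben and rose by 1.46 ± 0.26 (adjusted p = 0.00276). RPL35P1 went from 38.7 and 24.2 CPM to 78.9 and 117 CPM (1.63 ± 0.30), and RPS4XP11 from 135 and 74.0 CPM to 207 and 316 CPM (1.32 ± 0.29). In all 3 the groups did not overlap, and the calls held with each library left out. RPS3AP38, more diverged at 84.7% identity, went from 2.98 and 0.866 CPM to 15.5 and 12.6 CPM (2.84 ± 0.61), and its longest identical stretch was 28 bases. Its value in ethanol library 2 lay under the 1.30 CPM that 3 counts equal there. This copy passed the filter on low counts only through the methylparaben libraries, where it was high.

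The largest increases, however, were set by methylparaben library 2. RPL41P1 had 12.3 and 8.66 CPM with ethanol and 15.5 and 240 CPM with methylparaben (3.57 ± 0.97, adjusted p = 0.0174), and without methylparaben library 2 the change was 0.59 (adjusted p = 0.379). AC016596.1 had 5.95 and 2.16 CPM against 7.07 and 207 CPM (4.67 ± 1.26, adjusted p = 0.0168), and 0.82 without that library (adjusted p = 0.476). RPL13P12 had 3.83 and 3.03 CPM against 5.99 and 130 CPM (4.24 ± 1.16, adjusted p = 0.0177), and 0.83 without it (adjusted p = 0.533). In each, methylparaben library 1 was slightly above the ethanol libraries and methylparaben library 2 more than 10 times above them. RPL41P1 and RPL13P12 also missed the threshold without ethanol library 1 (adjusted p = 0.059 and 0.0646). AC090498.1, the third RPL41 copy, had 78.3 and 57.6 CPM against 128 and 453 CPM (2.08 ± 0.47). RPS2P46 had 37.0 and 37.7 CPM against 118 and 889 CPM (3.74 ± 0.73, adjusted p = 0.00385), and still passed at 1.69 without methylparaben library 2, as did RPS18P12 at 1.0 (3.35 with all libraries).

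**Figure D3:**
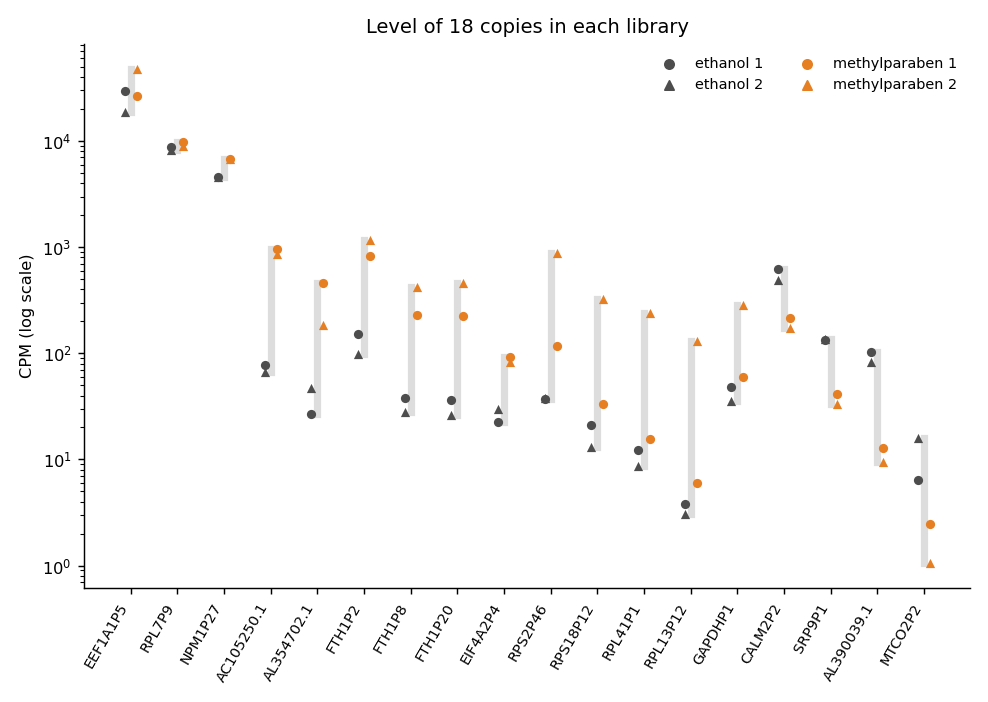
Level in CPM (log axis) in each of the 4 libraries for 18 copies, each point 1 library, with a grey bar for the range over the libraries. For the HSPA5 and ferritin copies both methylparaben points lie well above the ethanol points, close together for AC105250.1 and further apart for AL354702.1. For RPL41P1 and RPL13P12 methylparaben library 2 stands alone.

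The spread within the methylparaben group moved with base composition. Among the 76 ribosomal copies called higher the median log2 ratio of methylparaben library 2 to library 1 was 1.13, and 41 of them were at least 2-fold higher in library 2, whereas the median over all tested genes was -0.04. Those 76 copies had a median GC content of 49.7%, against 45.0% for the 128 ribosomal copies not called and 43.5% for all tested genes. Split into 4 classes by GC content, from lowest to highest, 7 of 52, 16 of 50, 22 of 51 and 31 of 51 ribosomal copies rose. Over all tested members, 23 rose and 24 fell in the lowest of 4 classes by GC content, and 90 rose and 5 fell in the highest (47.8% to 73.8% GC). All tested genes leaned the same way, with 361 higher and 449 lower of 2012 in their lowest class and 482 higher and 220 lower of 2011 in their highest. In the highest class of the tested members the median log2 ratio to the ethanol mean was 0.36 in methylparaben library 1 and 1.01 in methylparaben library 2. In the highest class of all tested genes these medians were 0.099 and 0.48. As a description over 1022 copies that share libraries and often parents, Pearson's r of GC content with the log2 ratio to ethanol was 0.11 in methylparaben library 1 and 0.43 in methylparaben library 2. The part of GC content in the increases was not tested.

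Parents with several tested copies followed this pattern in part. RPL41 (3 of 3 copies higher, median 3.57), RPS18 (3 of 3, 2.93) and RPL7A (2 of 3, 2.34) had copies with a median GC content of 50.6%, 51.6% and 53.1%. RPL21 (0 of 15 called, median -0.19), RPS20 (0 of 7, -0.32), RPL7 (0 of 4, -0.02) and RPL5 (2 of 13 higher, 0.12) had 43.3%, 44.5%, 43.4% and 42.8%. Other parents did not follow it, since the copies of RPL15 (1 of 3 higher, median -0.19) had a median GC content of 53.1%, and those of RPL29 (1 of 3 higher, median 0.57) one of 55.3% with a median log2 ratio of methylparaben library 2 to library 1 of -0.77. Over the 32 ribosomal parents with 3 or more tested copies, r of GC content with the median log2 fold change was 0.51, and 6 parents had no copy called.

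**Figure D4:**
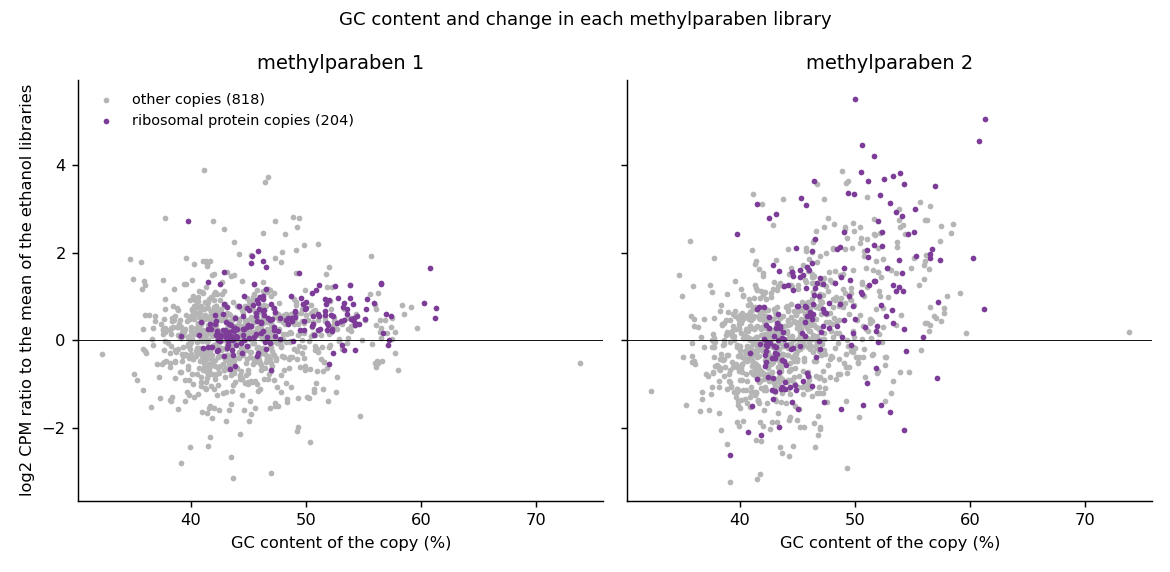
Log2 ratio to the ethanol mean against GC content in percent, in separate panels for each methylparaben library, for 204 ribosomal copies and 818 other copies, each point 1 copy. The upward slope is steeper in methylparaben library 2 (r = 0.43) than in methylparaben library 1 (r = 0.11).

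Copies of glycolytic and respiratory chain genes had few calls. Of 11 tested copies of glycolytic genes 1 rose and 0 fell, with a median of 0.68. The share of 9.09% stood against 18.5% of all tested genes called higher. The copy that rose was GAPDHP1, at 48.5 and 35.5 CPM with ethanol and 59.3 and 284 CPM with methylparaben (2.01 ± 0.57, adjusted p = 0.0202). Without methylparaben library 2 its change was 0.53 (adjusted p = 0.179), and without ethanol library 1 the adjusted p was 0.0551. The glycolytic list had 5 higher calls without methylparaben library 1, 3 without ethanol library 2, and 2, 4 and 3 with RLE, upper-quartile and library-size scaling. Of 18 tested respiratory chain copies 2 rose and 0 fell, a share of 11.1% against 18.5% of all tested genes called higher. COX6A1P2 had 17.9 and 14.7 CPM against 25 and 105 CPM (1.96 ± 0.56), and UQCRFS1P1 had 31.5 and 29 CPM against 37.8 and 185 CPM (1.85 ± 0.57). Without methylparaben library 2 these were 0.65 and 0.35 and did not pass, and without ethanol library 1 neither passed (adjusted p = 0.0661 and 0.0948). HMGN2P5, PPIAP31 and VDAC1P1 likewise had higher calls (1.74, 1.5 and 1.13) that were lost without methylparaben library 2, where they were 0.53, 0.61 and 0.60. PPIAP31 also lost its call without ethanol library 2 (adjusted p = 0.0689), and VDAC1P1 without ethanol library 1 or 2 (0.103 and 0.0532).

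In the SLC25 and VDAC list 1 of 2 copies rose by name. By sequence 4 of 5 rose and 0 fell, with a median of 0.99. That share of 80% stood against 18.5% of all tested genes called higher. In the ubiquitin and SUMO list 4 of 9 copies rose and 1 fell, and by sequence 4 of 14 rose and 2 fell. Its shares called, 55.6% and 42.9%, were above the 36.9% of all tested genes. SUMO2P1, a copy of the gene for a ubiquitin-like modifier, had 255 and 219 CPM against 322 and 392 CPM and rose by 0.59 ± 0.18 (adjusted p = 0.0268). SUMO2P1 lost its call, and the list had 1 higher call, without ethanol library 1, without ethanol library 2 and without methylparaben library 2. SEC63P1, a copy of a gene for an endoplasmic reticulum translocation factor, rose by 0.81 ± 0.18, lost without ethanol library 2 (adjusted p = 0.0932). Grouped by name, the tested copies of CCT and TCP1 (3), keratins (2), proteasome (6), NACA, BTF3, TPT1 and RACK1 (8), small GTPases (2), histones (3) and MORF4 and ZNF genes (2) had 0 calls with edgeR, 0 with DESeq2 or limma voom, and 4 of these 26 copies had an unadjusted p under 0.05. Grouped by sequence, AC034102.1 (1 of 4 copies of small GTPase genes) rose by 1.65 ± 0.57 and ZNF204P (1 of 7 copies in the MORF4 and ZNF list) by 1.26 ± 0.29. AC034102.1 lost its call without methylparaben library 2 (0.40, adjusted p = 0.56) or ethanol library 1 (adjusted p = 0.114). Copies of tubulin and actin genes did not pass the filter. In total, 106 of 348 copies in a list were called (30.5%), 61 of 288 named copies in no list (21.2%) and 89 of 386 without a named parent (23.1%), all under the background of 36.9%.

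Copies of genes with unrelated functions were among those that fell. AL390039.1, a copy of GTF3C6, a subunit gene of the RNA polymerase III factor TFIIIC, had 103 and 82.2 CPM with ethanol and 12.8 and 9.42 CPM with methylparaben and fell by 3.03 ± 0.29 (adjusted p = 0.000129). GTF3C6 itself had 0 counts in all 4 libraries. SRP9P1, identical to SRP9 of the signal recognition particle over 261 bases, had 132 and 136 CPM against 41.1 and 33.5 CPM and fell by 1.84 ± 0.22 (adjusted p = 0.000347), while SRP9 had 5 counts in all. CALM2P2 had 617 and 492 CPM against 214 and 173 CPM and fell by 1.51 ± 0.19 (adjusted p = 0.000437). CALM2 fell by 1.62, and 99.8% of its counts were on transcripts annotated as retained introns. The calls for AL390039.1, SRP9P1 and CALM2P2 held with each library left out in turn.

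Copies of genes for the Sm proteins of the spliceosome were among those that fell. Of 7 tested copies named after SNRP, SRSF or RBM genes 5 fell, all from SNRP genes, and 0 rose. The share that fell was 71.4%, against 18.4% of all tested genes called lower. The median was -0.72, and the highest value of 1.33 did not pass. Grouped by sequence there were 17 copies, of which 41.2% were called, against 36.9% of all tested genes. The same 5 fell and 2 rose, with a median of -0.38. The 2 were AL034397.1, which matched RBMX (1.99 ± 0.47), and AL603766.1, which matched SNRPB2 (0.88 ± 0.29) and lost its call in 3 of the 4 leave-one-out fits. SNRPEP2, from the gene for the Sm protein E, had 122 and 86.6 CPM with ethanol and 50.3 and 36.1 CPM with methylparaben and fell by 1.26 ± 0.27 (adjusted p = 0.00571). SNRPGP2 had 51.0 and 60.2 CPM against 29.4 and 25.1 CPM (-1.02 ± 0.27), and SNRPEP4 had 185 and 176 CPM against 132 and 86.9 CPM (-0.71 ± 0.22). The groups did not overlap in any of these 3. SNRPE fell by 3.61 ± 0.71, from 27 and 17 counts to 2 and 2. The list had 1 lower call without ethanol library 1 or without ethanol library 2, and 2 without methylparaben library 2. The HNRNP list was mixed, with 3 of 20 copies lower and 2 higher by name, and 5 of 22 lower and 2 higher by sequence. Its shares called, 25% and 31.8%, were under the 36.9% of all tested genes. HNRNPRP1 had 109 and 71.4 CPM against 30.2 and 22.5 CPM and fell by 1.76 ± 0.29, as HNRNPR did (-0.95). HNRNPCP2 had 338 and 269 CPM against 454 and 807 CPM and rose by 1.05 ± 0.26, where HNRNPC fell by 1.73. The lower calls of this list were 1 without ethanol library 1 and 5 without methylparaben library 1, and 6 with scaling by library size only.

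Nuclear copies of mitochondrial genes fell in 3 of 5 tested cases, a share of 60% against 18.4% of all tested genes called lower. MTCO2P2, a copy of the cytochrome oxidase subunit gene MT-CO2, had 6.38 and 16 CPM with ethanol and 2.45 and 1.05 CPM with methylparaben (-2.53 ± 0.68, adjusted p = 0.0162). MTND4P12 (-2.54 ± 0.73) and MTCO1P40 (-2.01 ± 0.60) also fell, as did MT-CO2 (-1.32), MT-ND4 (-0.85) and MT-CO1 (-0.78). Ethanol library 2 was the highest library for all 3 copies, and without it none passed (adjusted p = 0.318 for MTCO2P2, 0.51 for MTND4P12 and 0.318 for MTCO1P40). MTCO2P2 counts equalled 0.0334%, 0.107%, 0.0434% and 0.0130% of MT-CO2 counts.

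Among other lowered copies, HMGB1P10, from the gene for a chromatin protein, had 32.3 and 35.1 CPM against 12.5 and 10.99 CPM and fell by 1.5 ± 0.32, and HMGB1 fell by 1.86. YWHAZP2, from a 14-3-3 gene, fell by 0.77 ± 0.17, and 2 of 8 copies in its list fell and 0 rose, against 18.4% of all tested genes called lower. The list had 0 lower calls without ethanol library 1, where the adjusted p of YWHAZP2 was 0.0755, and 1 without methylparaben library 2. It had 4 without methylparaben library 1 and 4 with library-size scaling. In the calmodulin list 1 of 6 copies fell, and in the cell cycle list 1 of 7 by name and 2 of 11 by sequence. These shares of 16.7%, 14.3% and 18.2% lay near or under the 18.4% of all tested genes called lower.

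FABP5 encodes a fatty acid binding protein, and its copies moved against it. FABP5P7, identical to FABP5 over 405 bases, had 165 and 191 CPM with ethanol and 73.7 and 113 CPM with methylparaben and fell by 0.94 ± 0.23 (adjusted p = 0.0111). FABP5P1 (-1.26 ± 0.37) and FABP5P2 (-1.23 ± 0.35) also fell. FABP5 rose by 2.36 ± 0.72, from 1 and 9 counts to 37 and 24, and all of those counts were on transcripts annotated as retained introns. FABP5P7 missed the threshold without ethanol library 2 (adjusted p = 0.0534), and FABP5P1 and FABP5P2 without ethanol library 1 (0.112 and 0.0607) or methylparaben library 2 (0.0604 and 0.0593).

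For 758 tested copies the best-matching coding gene was tested too. Of the 132 higher copies among them, the coding gene was called higher for 38, lower for 15 and not called for 79. Of the 49 lower copies the coding gene was called lower for 30, higher for 6 and not called for 13. Among all tested genes 18.5% were called higher and 18.4% lower. Across these pairs Pearson's r of the log2 fold changes was 0.24, a description only, since pairs share libraries, reads and often a parent. Many parents had far fewer counts than their copies. RPL7 had 87 counts against 132117 on its copies, RPL21 35 against 34895, RPS2 0 against 14060 and GAPDH 2 against 1362, whereas HSPA5 had 297587 against 7748.

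**Figure D5:**
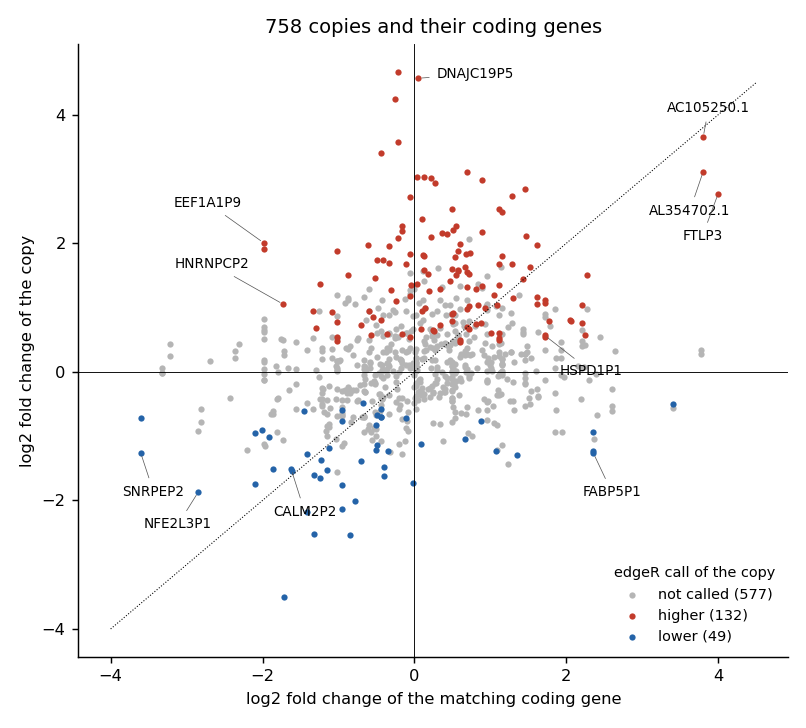
Log2 fold change of 758 copies against that of the best-matching coding gene, each point 1 pair, coloured by the call of the copy. Lower copies lie mostly where the coding gene is also below 0, while the 132 higher copies spread over both sides (r = 0.24 over all pairs).

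The share of copies called varied with how long a stretch they shared with the coding match. It was 14 of 43 for a longest identical stretch under 50 bases, 75 of 406 for 50 to under 100, 109 of 435 for 100 to under 200 and 58 of 138 for 200 bases or more, a class that held 62.4% of the counts on processed pseudogenes. These were shares of 32.6%, 18.5%, 25.1% and 42.0%, of which the last was above the 36.9% of all tested genes. The median identity was 97.3% among higher copies, 96.0% among lower and 95.6% among copies not called. Classes differ in depth, with a median of 7.36 CPM in the first class and 167 CPM in the last, and the part of depth in these shares was not tested. By position, 124 of 516 copies outside genes were called, 106 of 377 in introns of coding genes, 15 of 87 in introns of other genes and 11 of 42 that overlapped an exon, shares of 17.2% to 28.1% that were all under the 36.9% of all tested genes.

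Copies within other genes were set beside their hosts. For 163 copies in introns of a tested coding gene, r of the log2 fold changes of copy and host was 0.12, and for 17 copies that overlapped an exon of a tested gene it was 0.72. SUMO1P3, in an intron of COPA on the opposite strand, fell by 0.49 ± 0.17 (adjusted p = 0.0436), and it lost its call in 3 of the 4 leave-one-out fits. COPA, a coat protein gene of Golgi transport, rose by 2.81. Of the COPA counts, 88.3% were on transcripts annotated as retained introns and 0% on coding transcripts. RAB11FIP1P1 overlaps an exon of the noncoding gene FTX on the opposite strand, and FTX fell by 2.15. RAB11FIP1P1 had 16 and 11 counts with ethanol and 1 and 2 with methylparaben, the latter below what these libraries resolve. It passed the filter on low counts only through the ethanol libraries, where it was high. The ratio of methylparaben to ethanol counts per scaled depth on RAB11FIP1P1 was 0.0927 (95% exact binomial interval 0.0180 to 0.301, counting error only). Its call was lost without ethanol library 2 (adjusted p = 0.11) or methylparaben library 1 (0.147).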

How the data were processed

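RNA was sequenced from 4 libraries of H1299 cells. The authors deposited raw read counts per transcript, FPKM values per listed transcript length, log2 of FPKM plus 1, and p-values of their own comparison, per the file headers. Per the submitters' processing notes the build was GRCh38, and edgeR, limma and DESeq2 are listed with no version or step. The sources used here do not name the aligner or the counting program. By the adjusted p in the authors' deposited table, 295 processed pseudogenes were under 0.05, of which 245 were tested here and 219 were also called.

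Counts were summed per gene, because the table holds transcripts, and scaled by TMM. Genes were kept with filterByExpr (minimum count 10, total 15) and tested with the quasi-likelihood test of edgeR 4.0.16 in R 4.3.3, without a block, with Benjamini-Hochberg adjustment over 8055 genes. Copies under that minimum in both libraries of a group, such as EIF1P3, RPS3AP38, DNAJC19P5 and RAB11FIP1P1, were tested only through the group where they were high. Log2 fold changes carry their standard errors. CPM are counts per 1000000 of the TMM-scaled library, in which 3 counts equal 1.28, 1.30, 0.816 and 1.57 CPM. Alternatives used limma 3.58.1 and DESeq2 1.42.0. Each copy was compared with GENCODE release 29 coding transcripts by blastn 2.17.0 (word size 11, e-value 1e-05, plus strand), and GC content came from the transcript with most reads.

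Copies were named by rule: the 10 most abundant, the 12 largest increases and 12 largest decreases among calls at a mean of 5 CPM or more, and up to 3 calls per list by smallest p, with their parents and hosts. FTLP3, FTH1P3, AC090498.1, HSP90AB3P, HSP90B3P, HSP90AA2P, the FABP5 copies, SUMO1P3, RAB11FIP1P1, AL034397.1, AL603766.1, AC034102.1 and ZNF204P were named after their values were seen. The members and the 30 lists of parent genes were chosen with earlier results of these data known. Some items covered by these rules are not reported here.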

Additional observations from a re-analysis of the deposited data

How the results depend on the processing

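Among 1022 tested processed pseudogenes 256 were called, 186 higher and 70 lower. RLE, upper-quartile and library-size scaling, either other filter, limma voom and the deposited transcript rows gave 192 to 303 calls. Over all genes these settings gave 2748 to 3196 calls, against 2976 in the main fit. DESeq2 gave 169 calls with 45 lower, limma on log2 FPKM plus 1 gave 161 with 92 higher, and limma on log2 FPKM plus 0.1 gave 132 with 70 higher. In the same order, calls over all genes were 2251, 2192 and 1899. Leaving out each library in turn gave 140 to 381 calls, 115 to 284 higher and 25 to 97 lower, and 128 of the 140 calls without ethanol library 1 were among the 256. Log2 fold changes turned negative for EEF1A1P6 without methylparaben library 2 (-0.0084) and for FTH1P3 without methylparaben library 1 (-0.41), both uncalled with all libraries; without the other methylparaben library they were 0.91 and 2.13. The cause of these changes was not tested. With the replicate number as a replicate block 200 were called (152 higher, 48 lower), 196 of them among the 256. That fit called 2488 of all 8055 genes. The numbers share no stated batch, and same-numbered libraries did not deviate together (r = -0.15 over 8055 genes). The crossed pairing, chosen after seeing the data, gave 316 calls, and 3292 over all genes. With 2 libraries per group, 2234 copies with reads were too shallow to test, and levels under 3 counts are below what these libraries resolve.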
